A study of Homo sapiens with 16 samples.

Results

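Transcript levels were compared between 2 libraries of Mock MCF10A cells treated with TGF-β1 at 5 ng/ml for 48 h and 2 libraries of untreated Mock cells, which were 4 of the 16 libraries of the study. The members were taken by their labels (stock, treatment and time), and a difference was formed within replicate 1 and within replicate 2. MCF10A is a non-tumorigenic human mammary epithelial cell line. Mock cells carried the empty vector and were the control of a stock that overexpressed PHF8, a histone lysine demethylase. All groups grew in DMEM-F12 with EGF, cholera toxin, insulin, hydrocortisone and horse serum, and TGF-β1 went straight into this medium. Mock and PHF8 cells are given as 1 stock each. The replicate number stands for the round of sequencing, 1 or 2. Nothing in the labels tells whether the replicates were grown as separate cultures. The p-values therefore rest on the spread between replicates in all 16 libraries, rounds included, and that spread may be technical.

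TGF-β1 binds the type II receptor TGFBR2, which activates the type I receptor TGFBR1, and the receptor complex phosphorylates SMAD2 and SMAD3. These enter the nucleus with SMAD4 and act with other transcription factors on target genes. In mammary epithelial cells the cytokine is known to induce epithelial-mesenchymal transition (EMT), in which SNAIL and ZEB factors repress junction genes while matrix and contractile genes are switched on, and to slow growth through lower MYC and higher CDK inhibitors.

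Each gene has a deposited log2 value in each library, called its log2 level here, and 2 raised to it is on the scale of a normalised count. Pairs of levels are given with round 1 before round 2. Of the table's genes, 13564 had a normalised count of about 10 or more (2 raised to the level) in at least 2 of the 16 libraries and were tested. On the linear scale the levels summed to 20.3 and 21.2 M in the 48 h libraries and to 18.9 and 18.8 M in the untreated libraries, within the range of all 16 (18.8 to 21.2 M). Replicates correlated at 0.9871 across genes at 48 h and at 0.9898 untreated. Depth in reads is unknown. Basal mammary markers were present in every library. KRT5, for example, had log2 levels of 15.08 and 14.63 at 48 h, against 15.58 and 15.64 in untreated cells. The luminal markers PGR and TFF1 and the blood markers CD3E and HBB were listed at 0 throughout. In bulk RNA, fewer cells of a type and less RNA per cell cannot be told apart.

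At 48 h of TGF-β1, secreted matrix, integrin, contractile and SMAD feedback genes were among the increases. Some genes of keratinocyte differentiation, of epithelial identity and of aldehyde metabolism were among the decreases, while a few in the same lists rose. The increases reached 50.7-fold (POSTN) and the decreases 46.7-fold (CAMK2B). In limma, 2346 of 13564 genes (17.3%) passed an adjusted p under 0.05 and are called here. Of these, 1318 (9.72%) rose and 1028 (7.58%) fell, and 584 and 331 did so by at least 2-fold. The median difference over all genes tested was 0.0016 on the log2 scale. The counts and medians of gene lists given after this are to be read against these 3 values, and a share near 9.72% or 7.58% is no result about a list.

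Every called gene had the same sign in both rounds, against 79.9% of all genes tested. The calls come from the same libraries, so this is no separate check of them. In 470 genes (3.47%) both rounds gave at least a 2-fold increase and in 304 (2.24%) at least a 2-fold decrease, a count that uses no test. Without regard to rounds, both 48 h libraries lay above both untreated libraries in 3979 genes (29.3%) and below both in 3927 (29%). The rounds differed in size. Over genes the difference had an SD of 0.576 in the first round and 0.802 in round 2, and 2044 of the called genes (87.1%) had the larger absolute difference in round 2. The same order of SDs was seen at 24 h (0.59 and 0.738) and at 72 h (0.617 and 0.724) in Mock cells. The rounds were also compared over the 939 genes called higher at 48 h in the PHF8 stock. Their differences come from PHF8 libraries, but the spread behind the calls includes the Mock libraries and their rounds, so the shares that follow are a description. In untreated Mock cells 74% of them were higher in round 1 than in round 2 (all genes 52.5%), with a median difference between rounds of 0.13. At 48 h 24.6% were (all genes 47.8%), with a median of -0.181.

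With the round as a replicate block in the fit, 4740 genes were called (34.9%), 2452 higher (18.1%) and 2288 lower (16.9%), and these included all 2346. Without the round 2 library at 48 h the count was 794, and without the round 2 untreated library it was 791. It was 2225 without the round 1 library at 48 h and 1634 without the round 1 untreated library. In all 4 of these fits 653 genes were called (27.8% of the calls). Where a call given below for a named gene was lost in any of them, the adjusted p that resulted is given, or its range over the 4 fits, and list counts that moved by over 1.5 times are given in the order 48 h round 1, 48 h round 2, untreated round 1, untreated round 2, after the library left out.

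**Figure D1:**
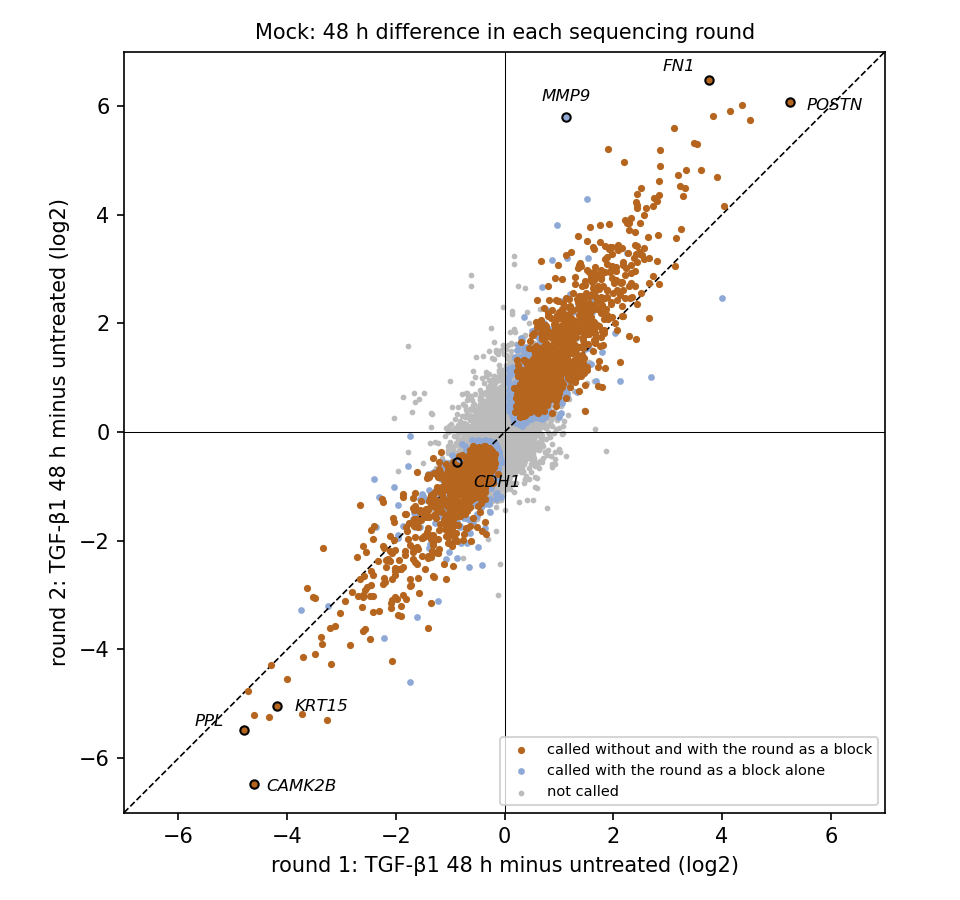
Difference between TGF-β1 48 h and untreated Mock cells (log2) in round 1 (x axis) and round 2 (y axis), 1 point per gene tested, with the line of equality dashed. Called genes have the same sign on both axes, as do 79.9% of all genes tested. Of the 2346 genes called without the block, 2044 had the larger absolute difference in round 2. CDH1 and MMP9 were not called without the block.

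The largest increase was in POSTN. This gene encodes periostin, a matricellular protein that binds integrins and collagen. POSTN had log2 levels of 10.84 and 11.05 at 48 h, against 5.59 and 4.97 in untreated cells. The 48 h libraries lay far above the untreated ones and differed less between rounds than these did. This gave a log2 difference of 5.66 ± 0.55 (limma adjusted p = 0.000127). Here and below, ± is the SE for 2 libraries per group, with the gene's spread estimated by limma from all 16 libraries. KANK4, of a family of proteins that regulate the actin cytoskeleton, had log2 levels of 11.04 and 11.92 at 48 h and 6.67 and 5.91 in untreated cells, a difference of 5.19 ± 0.36 (adjusted p = 3.42e-05). LBH, a transcriptional cofactor known as a WNT target in mammary epithelium, had log2 levels of 10.15 and 10.84 at 48 h, against 5.63 and 5.10 in untreated cells, a difference of 5.13 ± 0.40 (adjusted p = 5.21e-05).

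FN1, the gene of fibronectin, had log2 levels of 17.91 and 18.54 at 48 h, against 14.15 and 12.06 in untreated cells. Its 5.12 ± 0.67 difference (adjusted p = 0.000694) was 3.76 in round 1, against 6.48 in round 2. The untreated libraries were further apart than the 48 h ones. TGM2, which cross-links matrix proteins, had log2 levels of 14.80 and 16.55 at 48 h and 10.97 and 10.74 in untreated cells (difference 4.82 ± 0.48, adjusted p = 0.000157). Here the 48 h libraries were the ones further apart.

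The next increases were in genes of several kinds. Signalling at the cell surface was represented by the nicotinic acetylcholine receptor subunit CHRNA9 (difference 4.35, adjusted p = 0.000788) and the inwardly rectifying potassium channel KCNJ15 (4.08, adjusted p = 0.000125). NEDD9, a scaffold of focal adhesions, had log2 levels of 9.92 and 10.91 at 48 h and 6.43 and 5.58 in untreated cells (4.41, adjusted p = 0.000477). The integrin subunit ITGB3 had 8.26 and 8.95 at 48 h and 4.35 and 4.26 in untreated cells (4.30, adjusted p = 5.21e-05). ALOX5AP, which serves leukotriene synthesis, rose by 4.22 (adjusted p = 8.46e-05) and the unconventional myosin MYO7B by 4.10 (adjusted p = 0.000228). C4orf26, a secreted phosphoprotein gene known from tooth enamel, rose by 4.03 (adjusted p = 0.000216), and the LIM-domain transcriptional cofactor LMCD1 by 3.96 (adjusted p = 5.21e-05). These increases kept their call without any 1 of the 4 libraries.

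CAMK2B showed the largest decrease. It encodes the beta chain of a calcium- and calmodulin-dependent kinase. Its log2 levels were 2.48 and 2.32 at 48 h, against 7.09 and 8.80 in untreated cells, a difference of -5.54 ± 0.87 (adjusted p = 0.00174). PPL, the gene of periplakin, which links desmosomes and the cornified envelope to keratin filaments, had log2 levels of 5.16 and 5.09 at 48 h and 9.95 and 10.57 in untreated cells (-5.14 ± 0.58, adjusted p = 0.000319). FGFBP1, which releases fibroblast growth factors from the matrix, had log2 levels of 6.19 and 6.14 at 48 h and 10.80 and 11.35 in untreated cells (-4.91 ± 0.58, adjusted p = 0.000394). In all 3 genes the 48 h libraries were close to each other and the untreated ones further apart.

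S100A8 and S100A9 encode the subunits of calprotectin, a calcium- and zinc-binding complex of stressed epithelia and myeloid cells. S100A8 had log2 levels of 6.11 and 6.78 at 48 h, against 10.45 and 12.02 in untreated cells (-4.79 ± 0.64, adjusted p = 0.000731). S100A9 had log2 levels of 8.12 and 8.93 at 48 h, against 12.12 and 13.47 in untreated cells (-4.27 ± 0.74, adjusted p = 0.00306). For both genes round 2 was higher than round 1 in treated and in untreated cells, and the groups did not overlap. ALDH3A1, an aldehyde dehydrogenase, had log2 levels of 4.32 and 5.34 at 48 h and 9.05 and 10.10 in untreated cells (-4.74 ± 0.83, adjusted p = 0.00316). The basal keratin KRT15 had 5.43 and 5.69 at 48 h and 9.61 and 10.74 in untreated cells (-4.61 ± 0.54, adjusted p = 0.000384).

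The other large decreases were in SLC27A2, an acyl-CoA synthetase and fatty acid transporter (-4.46, adjusted p = 0.00169), in TGM1, the transglutaminase of the cornified envelope (-4.29, adjusted p = 0.000263), and in PRR15L (-3.92, adjusted p = 8.28e-05). CYP1B1, a cytochrome P450 induced through the aryl hydrocarbon receptor, fell by 3.79 (adjusted p = 0.00444). SERPINB13, a keratinocyte serpin, fell by 3.63 (adjusted p = 0.00306) and the membrane protein gene SUSD2 by 3.57 (adjusted p = 0.00306). FAM65B, now called RIPOR2, differed by -4.29 (adjusted p = 0.00741, and 0.0634 without the round 2 untreated library). ELF3, an epithelial ETS factor, differed by -3.73 ± 1.12 (adjusted p = 0.042), and its call was lost without any 1 of the 4 libraries (adjusted p between 0.0588 and 0.245). The remaining 13 decreases kept their call in all 4 fits.

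**Figure D2:**
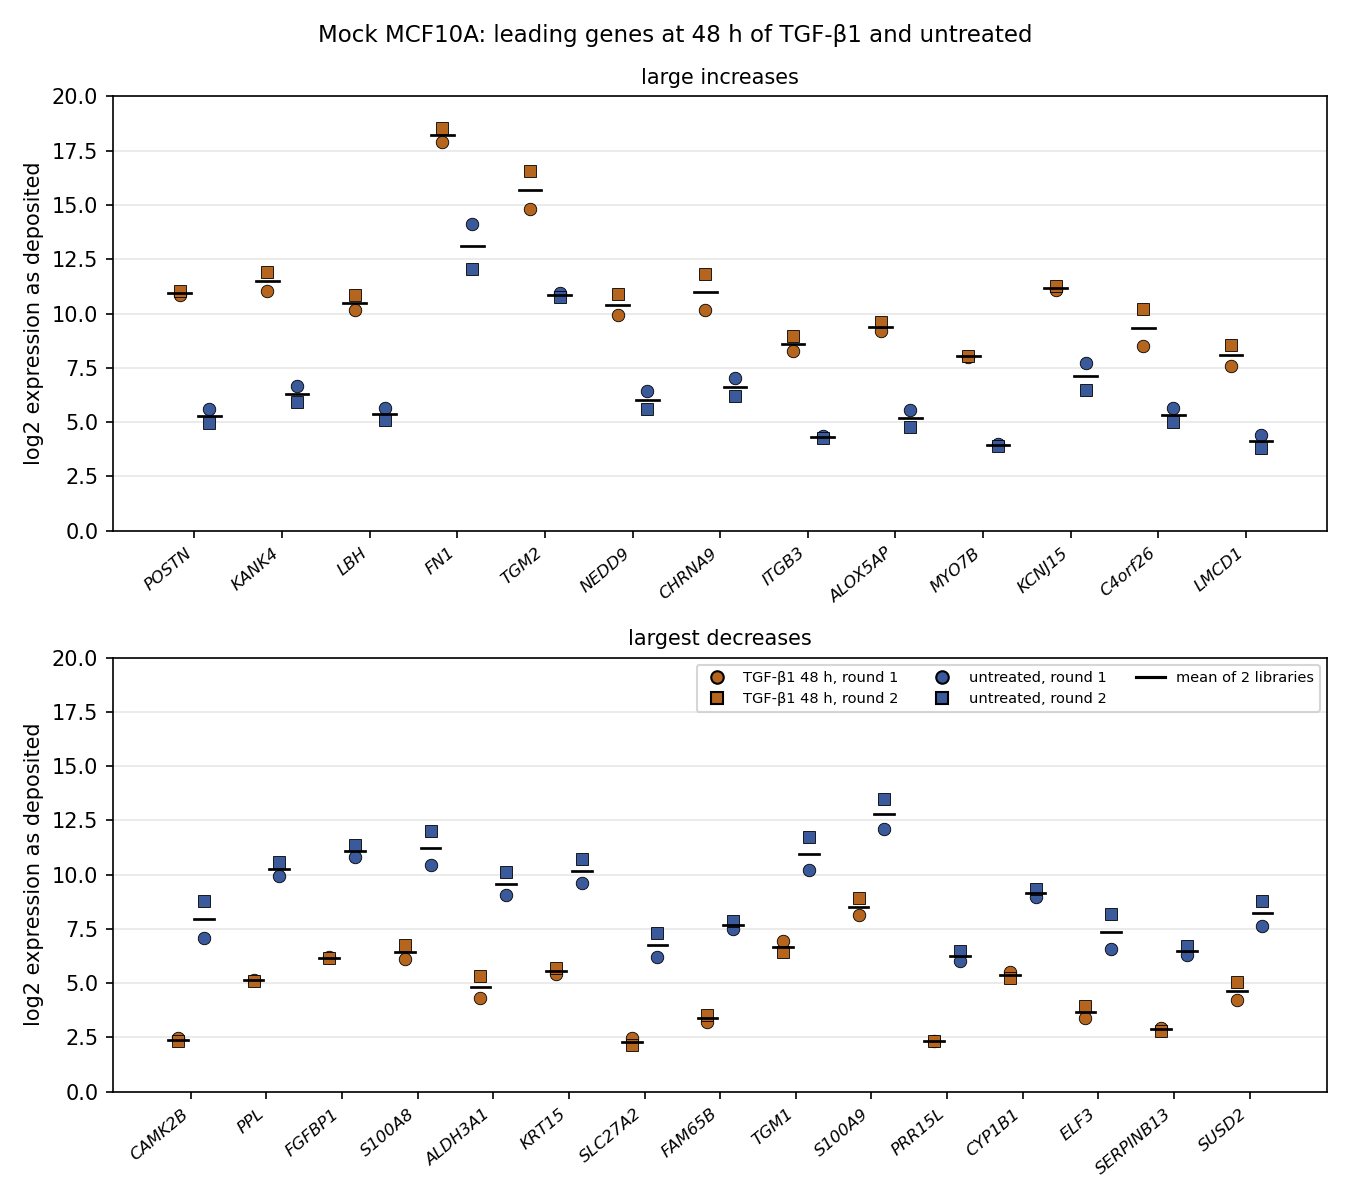
Log2 levels of 13 genes with large increases (top) and the 15 genes with the largest decreases (bottom) in Mock cells, with TGF-β1 48 h (brown) left of untreated (blue), circles for round 1 and squares for round 2, and lines for the mean of 2 libraries. The genes were picked for large called differences, and the groups are apart in all 28. Over all genes tested, both 48 h libraries lay above both untreated ones in 29.3% and below both in 29%. FN1 has the widest gap between its untreated libraries (14.15 and 12.06) among the increases.

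Promoter sequence is shown for 3 genes with a large increase and 3 with a large decrease, as the stretch where SMAD partners such as AP-1 (TGANTCA, where N is any base) and repressors of the SNAIL and ZEB families (CAGGTG, an E-box) are known to bind. The 250 bases before each start site come from RefSeq on GRCh38.p14 and are given on the gene's own strand. Capitals mark the AP-1 motif TGANTCA, the short SMAD-binding element CAGAC and the E-box CAGGTG. Both strands were searched, so that an E-box on the other strand reads CACCTG here, and the SMAD element reads GTCTG. The genes were picked after the matches were seen.
POSTN at chr13:37598769-37599018, minus strand: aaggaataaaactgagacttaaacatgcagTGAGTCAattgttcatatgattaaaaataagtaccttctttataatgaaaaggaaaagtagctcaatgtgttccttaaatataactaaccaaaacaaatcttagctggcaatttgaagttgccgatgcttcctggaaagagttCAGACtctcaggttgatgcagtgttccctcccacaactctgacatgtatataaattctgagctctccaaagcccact
IL11 at chr19:55370464-55370713, minus strand: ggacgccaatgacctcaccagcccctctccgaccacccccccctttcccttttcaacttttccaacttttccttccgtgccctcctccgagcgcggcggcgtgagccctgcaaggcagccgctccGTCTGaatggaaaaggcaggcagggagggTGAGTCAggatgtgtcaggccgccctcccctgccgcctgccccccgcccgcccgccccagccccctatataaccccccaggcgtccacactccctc
KCNJ15 at chr21:38272258-38272507, plus strand: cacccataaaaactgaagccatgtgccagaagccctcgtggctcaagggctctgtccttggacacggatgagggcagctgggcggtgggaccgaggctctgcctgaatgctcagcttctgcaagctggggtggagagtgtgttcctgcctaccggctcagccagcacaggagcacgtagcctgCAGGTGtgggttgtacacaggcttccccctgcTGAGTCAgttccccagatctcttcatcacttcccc
CAMK2B at chr7:44325595-44325844, minus strand: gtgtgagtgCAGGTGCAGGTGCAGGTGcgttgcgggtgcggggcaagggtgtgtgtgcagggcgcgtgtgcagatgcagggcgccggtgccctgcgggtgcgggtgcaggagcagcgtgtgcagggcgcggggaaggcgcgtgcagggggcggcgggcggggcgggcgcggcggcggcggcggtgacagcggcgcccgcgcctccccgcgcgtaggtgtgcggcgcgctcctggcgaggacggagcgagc
S100A8 at chr1:153391189-153391438, minus strand: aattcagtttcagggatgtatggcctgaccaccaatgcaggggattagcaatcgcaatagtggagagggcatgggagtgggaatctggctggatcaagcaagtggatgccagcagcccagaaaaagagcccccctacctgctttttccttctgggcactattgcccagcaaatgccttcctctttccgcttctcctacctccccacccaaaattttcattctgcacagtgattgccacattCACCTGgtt
S100A9 at chr1:153357604-153357853, plus strand: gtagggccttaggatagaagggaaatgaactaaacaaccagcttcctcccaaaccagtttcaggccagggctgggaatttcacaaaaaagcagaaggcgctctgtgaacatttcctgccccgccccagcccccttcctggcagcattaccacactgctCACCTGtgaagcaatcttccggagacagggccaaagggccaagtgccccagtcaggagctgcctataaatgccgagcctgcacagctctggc

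The matches are a description and say nothing of binding. Of the 10482 genes tested that had a promoter sequence, 1120 were matched by an older symbol. Such a symbol can belong to another gene, so the shares may include promoters of other genes. TGANTCA was in 5.13% of the 1073 called increases and 4.69% of the 831 called decreases that had a promoter sequence, against 4.11% of the 10482 such genes tested and 6.57% of all 35116 promoters in the table. CAGGTG was in 16.7% and 16.8%, against 15.9% of genes tested and 17.5% of all promoters. CAGAC was in 36.9% and 39%, against 35.7% and 38%. For these 3 motifs both called sets lay above the genes tested, and for TGANTCA and CAGGTG they lay below all promoters. The differences were not tested. The full palindrome GTCTAGAC was in 0.0932% and 0%, against 0.143% of genes tested and 0.182% of all promoters, and it overlaps CAGAC by containing its last 4 bases and their complement on the other strand.

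Genes of the TGF-β pathway itself moved mostly upwards. Of 17 SMAD feedback genes and direct SMAD targets, 12 rose, 0 fell and 5 were not called, with a median difference of 1.82. PMEPA1, which sequesters receptor-activated SMADs, had log2 levels of 14.13 and 14.50 at 48 h and 11.39 and 10.19 in untreated cells (3.53, adjusted p = 0.00025). TGFBI, a secreted adhesion protein, had 18.42 and 18.70 at 48 h and 16.03 and 15.03 in untreated cells (3.03, adjusted p = 9.97e-05). SPHK1, a sphingosine kinase, rose by 2.70 (adjusted p = 0.000353). The inhibitory SMAD7, which brings ubiquitin ligases to TGFBR1, had 9.50 and 10.39 at 48 h, against 8.03 and 7.90 in untreated cells (1.98 ± 0.24, adjusted p = 0.000495). In each of these genes the 48 h library lay above the untreated one in both rounds, as it did in every called increase.

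Other feedback genes rose by less. SKIL, a SMAD corepressor, rose by 1.93 (adjusted p = 0.000967), JUNB, an AP-1 subunit, by 1.82 (adjusted p = 0.00215), and the ubiquitin ligase SMURF2 by 1.13 (adjusted p = 9.94e-05). SMURF1 (0.97, adjusted p = 0.0425) and KLF10 (0.91, adjusted p = 0.0186) lost their call without 3 of the libraries. For SMURF1 the adjusted p was then 0.291, 0.176 and 0.117, and for KLF10 0.179, 0.0677 and 0.104, without 48 h round 2, untreated round 1 and untreated round 2. SKI and TGIF1 differed by 0.95 and 0.45 and were called with the round as a block alone (adjusted p = 0.00704 and 0.00705). TGIF2 differed by -0.59 (adjusted p = 0.0687, and 0.0213 with the block), and BAMBI, a decoy receptor, by 0.17 (adjusted p = 0.554).

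Among 18 ligands, receptors, binding proteins and SMADs, 6 rose and 1 fell (10 and 1 with the block), with a median of 0.62. LTBP2, a latent TGF-β binding protein, had log2 levels of 12.54 and 13.07 at 48 h and 10.37 and 10.00 in untreated cells (2.62, adjusted p = 9.94e-05), and LTBP1 rose by 1.15 (adjusted p = 0.0013). FSTL3, which binds activins, rose by 1.82 (adjusted p = 0.00143). The receptor genes did not move together. TGFBR1 had log2 levels of 11.90 and 12.62 at 48 h, against 10.71 and 10.50 in untreated cells, a difference of 1.65 ± 0.27 (adjusted p = 0.00238). TGFBR2 had 13.27 and 12.93 at 48 h and 13.25 and 13.17 in untreated cells (-0.11 ± 0.22, adjusted p = 0.778). TGFBR3, the co-receptor betaglycan, had 7.60 and 6.71 at 48 h and 9.47 and 9.70 in untreated cells (-2.43 ± 0.38, adjusted p = 0.00178). The type I receptor ACVR1 rose by 0.94 (adjusted p = 0.00339). ENG, endoglin, differed by 0.56 (adjusted p = 0.0123) and lost its call without 48 h round 2 (0.0857) or untreated round 2 (0.114).

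The SMAD transducers differed little and were not called. SMAD2, SMAD3 and SMAD4 differed by -0.04, -0.05 and -0.07 (SE 0.09, 0.30 and 0.10). The ligand gene TGFB1 had log2 levels of 8.11 and 9.08 at 48 h and 7.55 and 7.75 in untreated cells (0.95, adjusted p = 0.0707, and 0.0104 with the block). The BMP arm signals through SMAD1 and SMAD5 and induces ID genes. Of its 13 genes 1 rose, the type II receptor BMPR2 (1.09 ± 0.17, adjusted p = 0.00146), and 0 fell (4 and 1 with the block). This was 7.69% of the list, against 9.72% of all genes. Counts of increases were 2, 1, 2 and 1 without each library in turn. ID1 had log2 levels of 12.12 and 12.78 at 48 h, against 12.57 and 12.17 in untreated cells, with the rounds in opposite order (0.08 ± 0.20, adjusted p = 0.829), and the difference was -0.25 and -0.12 without the 48 h and the untreated library of round 2.

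SNAI1 and SNAI2 were higher among the EMT transcription factors, whereas TWIST1 was not called. Of 12 tested, 3 rose, 0 fell and 9 were not called, with a median of 0.29 and 3 calls without each of the 4 libraries. SNAI1, which represses CDH1 through E-boxes, had log2 levels of 7.45 and 9.25 at 48 h, against 4.14 and 4.76 in untreated cells (3.90 ± 0.69, adjusted p = 0.00347). SNAI2 had log2 levels of 12.00 and 12.37 at 48 h and 10.52 and 10.09 in untreated cells (1.88 ± 0.20, adjusted p = 0.000206). SOX4, a SOX factor that acts downstream of TGF-β in mammary cells, rose by 1.82 ± 0.20 (adjusted p = 0.000288).

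ZEB1 had log2 levels of 8.76 and 8.41 at 48 h, against 7.61 and 6.47 in untreated cells. The groups did not overlap, and the difference of 1.55 ± 0.59 had adjusted p = 0.0954, or 0.00264 with the round as a block. ZEB2 had 7.97 and 7.31 at 48 h and 7.49 and 6.14 in untreated cells (0.82 ± 0.92), so that its groups overlapped, with adjusted p = 0.594, or 0.157 with the block. In a fit of the Mock libraries alone with the block, the adjusted p of ZEB2 was 0.0146. TWIST1 had 7.92 and 7.37 at 48 h and 8.19 and 7.88 in untreated cells (-0.39 ± 0.28, adjusted p = 0.368).

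Of the cadherins, N-cadherin rose, and E-cadherin and P-cadherin were not called. CDH2, N-cadherin, had log2 levels of 10.74 and 10.54 at 48 h, against 9.11 and 8.59 in untreated cells (1.79 ± 0.32, adjusted p = 0.00366). CDH1, E-cadherin, had log2 levels of 10.57 and 11.01 at 48 h, against 11.45 and 11.57 in untreated cells. Both 48 h libraries lay below both untreated ones. The difference of -0.72 ± 0.87 had adjusted p = 0.628, or 0.338 with the block, and 0.00456 in the Mock libraries alone with the block. CDH3, P-cadherin, had log2 levels of 12.49 and 13.16 at 48 h, against 12.52 and 12.52 in untreated cells (0.31 ± 0.52, adjusted p = 0.739). VIM, vimentin, had log2 levels of 15.52 and 15.59 at 48 h, against 14.58 and 13.92 in untreated cells (1.31 ± 0.23, adjusted p = 0.00337).

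Of 17 mesenchymal and contractile genes, which include CDH2 and VIM, 12 rose, 0 fell and 5 were not called, with a median of 1.23. TAGLN, the actin-binding transgelin, had log2 levels of 13.02 and 12.64 at 48 h and 9.89 and 9.59 in untreated cells (3.09, adjusted p = 0.000823). The myosin light chain MYL9 had 9.82 and 9.92 at 48 h and 7.16 and 7.18 in untreated cells (2.70, adjusted p = 0.000518), and the tropomyosin TPM1 13.98 and 13.91 against 11.65 and 11.42 in untreated cells (2.41, adjusted p = 0.000138). Rounds agreed within each group for both. TNS1, tensin 1 of focal adhesions, had 7.82 and 9.75 at 48 h and 5.39 and 5.37 in untreated cells (3.40, adjusted p = 0.00517, and 0.0595 without the round 2 library at 48 h). ACTA2, smooth muscle actin, had 7.61 and 8.04 at 48 h and 7.42 and 7.74 in untreated cells (0.24 ± 0.26, adjusted p = 0.579). TPM2 (0.24) and MYLK (0.02) were not called either. The calls of ACTN1 and CNN3 were lost in all 4 fits without 1 library (adjusted p 0.0546 to 0.269 and 0.0635 to 0.211), and that of FLNA without untreated round 2 (0.0907).

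Of 10 fibroblast markers, 4 were tested and 3 rose. FAP, a membrane protease of activated stroma, had log2 levels of 12.10 and 12.44 at 48 h and 10.17 and 9.07 in untreated cells, PDPN, podoplanin, 12.57 and 12.91 at 48 h and 10.34 and 9.89 in untreated cells, and COL1A1 9.11 and 10.45 at 48 h and 6.81 and 6.60 in untreated cells. Summed on the linear scale the 10 markers reached 11700 and 15200 at 48 h, against 3420 and 1800 in untreated cells. Of the other markers, DCN, decorin, had log2 levels of 9.32 and 9.14 at 48 h and 9.72 and 7.74 in untreated cells, and its groups overlapped. THY1, LUM and COL3A1 had log2 levels below 0 in all 4 libraries, PDGFRA and PDGFRB at most 2.68, and TCF21 was listed at 0. The part of these markers in the results was not tested. The endothelial and blood markers summed to 128 and 174 at 48 h and to 403 and 501 in untreated cells. Of the 4 tested, CD14 fell, with log2 levels of 6.19 and 6.02 at 48 h against 8.41 and 8.70 in untreated cells, and PTPRC, the pan-leukocyte marker, was below 0 throughout.

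In the 4 lists of matrix genes increases were called and no decreases. Of 21 matrix glycoproteins and proteoglycans, 14 rose, 0 fell and 7 were not called, with a median of 2.08, the highest of the 28 lists other than cell type markers. Besides POSTN, FN1 and TGFBI, the elastic fibre protein FBLN5 had log2 levels of 7.00 and 8.73 at 48 h and 4.40 and 4.61 in untreated cells (3.36, adjusted p = 0.000944). TNC, tenascin C, had 11.85 and 13.19 at 48 h and 9.63 and 9.29 in untreated cells (3.06, adjusted p = 0.00215). Of the laminins, which build basement membranes, LAMB3 rose by 2.08 (adjusted p = 0.0019). LAMA3 differed by 2.18 (adjusted p = 0.041) and lost its call in all 4 fits without 1 library (0.0539 to 0.255).

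Other laminin chains were not called, with differences of 0.48 (LAMC1), 0.34 (LAMB1) and -0.23 (LAMA5). SPARC, a collagen-binding matricellular protein, rose by 1.76 (adjusted p = 0.000701), the proteoglycan VCAN by 1.18 (adjusted p = 0.000124) and the syndecan SDC2 by 2.17 (adjusted p = 0.0022). THBS1, thrombospondin 1, which can activate latent TGF-β, had log2 levels of 15.58 and 14.23 at 48 h and 14.25 and 13.51 in untreated cells, and its groups overlapped (1.03, adjusted p = 0.175, and 0.0105 with the block). Calls that rested on single libraries were those of FBN1 (2.93), with adjusted p = 0.0607 and 0.117 without the 48 h and the untreated library of round 2, SPOCK1 (2.47), with 0.0576 without 48 h round 2, and FBLN1 (0.67), with 0.379, 0.171 and 0.15 without 48 h round 2, untreated round 1 and untreated round 2.

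Among 16 collagen genes 7 rose, 0 fell and 9 were not called, with a median of 0.85. The basement membrane chains COL4A1 and COL4A2 are neighbours transcribed from a shared promoter region. COL4A1 had log2 levels of 14.26 and 14.63 at 48 h and 11.73 and 11.37 in untreated cells (2.90 ± 0.16, adjusted p = 1.24e-05), and COL4A2 14.74 and 15.17 at 48 h and 12.72 and 12.43 in untreated cells (2.38 ± 0.14, adjusted p = 1.68e-05). COL4A5 and COL4A6 differed by 0.28 and 0.00 and were not called. COL1A1 differed by 3.07 (adjusted p = 0.000472), COL7A1 of anchoring fibrils by 2.55 (adjusted p = 0.000343) and COL6A1 by 1.60 (adjusted p = 0.00179), all called in the 4 fits without 1 library. COL1A2, the partner chain of COL1A1 in type I collagen, had levels of 2.95 and 2.56 at 48 h and 2.13 and 2.09 in untreated cells, below a normalised count of 10 (0.64, adjusted p = 0.394). COL6A3 had 8.98 and 10.15 at 48 h and 6.79 and 5.17 in untreated cells (3.58, adjusted p = 0.0099) and lost its call without 48 h round 2 (0.101) or untreated round 2 (0.106). COL16A1 (0.88) lost it without the same libraries (0.149 and 0.196).

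Of 11 genes for cross-linking and hydroxylation of collagen, 5 rose and 0 fell, with a median of 0.84 and 3, 3, 4 and 3 calls without each library in turn. TGM2 led the group. The prolyl hydroxylase subunit P4HA3 had log2 levels of 6.58 and 7.82 at 48 h and 3.85 and 3.66 in untreated cells (3.45, adjusted p = 0.000967), and P4HA2 12.42 and 12.94 at 48 h and 10.80 and 11.06 in untreated cells (1.75, adjusted p = 0.000125), while P4HA1 differed by 0.30 (adjusted p = 0.392). The lysyl hydroxylase PLOD1 differed by 0.84 and lost its call without 48 h round 1 (0.0511), 48 h round 2 (0.0804) or untreated round 2 (0.13). LOXL2, a lysyl oxidase, differed by 0.77 and lost it in all 4 fits (0.0872 to 0.235). LOX differed by 1.04 (adjusted p = 0.179) and PLOD2 by 1.12 (adjusted p = 0.0515, and 0.00508 with the block).

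Of 21 proteases and inhibitors, 10 rose and 0 fell, with a median of 1.09, and 11, 6, 9 and 5 rose without each library in turn. The metalloprotease ADAM19 had log2 levels of 12.62 and 13.16 at 48 h and 9.81 and 8.91 in untreated cells (3.53, adjusted p = 0.000353). ADAMTS6 had 10.07 and 10.25 at 48 h and 7.75 and 6.30 in untreated cells (3.13, adjusted p = 0.000216), and the gelatinase MMP2 9.73 and 10.70 at 48 h and 7.47 and 6.85 in untreated cells (3.06, adjusted p = 0.001). PLAU, the urokinase plasminogen activator, rose by 2.63 (adjusted p = 0.0038), and its receptor PLAUR differed by 1.09 (adjusted p = 0.00421, and 0.0552 without untreated round 2). MMP9 is a gelatinase as well. MMP9 had 6.46 and 9.89 at 48 h, against 5.32 and 4.10 in untreated cells, so that its difference was 1.14 in round 1 and 5.79 in round 2 (adjusted p = 0.167, and 0.0288 with the block). Calls lost without 48 h round 2 and without untreated round 2 were those of SERPINE2 (0.0766 and 0.0724), MMP14 (0.108 and 0.0895) and TIMP2 (0.074 and 0.0505). ADAM12 lost its call without these (0.196 and 0.0999) or untreated round 1 (0.0806).

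Integrins link cells to these matrix proteins. Of 13 subunits 7 rose and 2 fell, with a median of 1.07. Besides ITGB3, the fibronectin receptor subunit ITGA5 had log2 levels of 13.86 and 14.76 at 48 h and 12.41 and 12.37 in untreated cells (1.92, adjusted p = 0.00094), and ITGAV, which pairs with ITGB3, ITGB5, ITGB6 and ITGB8, had 13.96 and 14.65 at 48 h and 12.75 and 12.33 in untreated cells (1.76, adjusted p = 0.000695). ITGB1 rose by 1.07 (adjusted p = 0.00159) and ITGB5 by 0.91 (adjusted p = 0.00117). ITGB6, whose dimer with ITGAV activates latent TGF-β, had 12.40 and 13.44 at 48 h and 10.46 and 10.04 in untreated cells (2.67, adjusted p = 0.0495) and lost its call in all 4 fits without 1 library (0.062 to 0.288). ITGA1 (0.63) lost it in 3 (0.132, 0.075 and 0.062 without 48 h round 2, untreated round 1 and untreated round 2). ITGB8 (-1.22, adjusted p = 0.0126) and ITGA10 (-1.26, adjusted p = 0.0277) lost theirs without 48 h round 1 (0.0667 and 0.155) or untreated round 2 (0.099 and 0.216), so that the count of decreases was 0, 2, 2 and 0 without each library in turn. ITGA6 and ITGB4, the hemidesmosome integrin, differed by 0.29 and 1.43 and were not called without the block.

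Epithelial genes moved in both directions. Of 13 regulators of epithelial identity, 5 fell and 1 rose, with a median of -0.54. GRHL3, a Grainyhead factor of barrier formation, had log2 levels of 3.69 and 4.10 at 48 h and 7.22 and 7.13 in untreated cells (-3.28 ± 0.33, adjusted p = 0.00016). EHF, an epithelial ETS factor like ELF3, had 7.01 and 8.04 at 48 h and 10.64 and 10.91 in untreated cells (-3.25 ± 0.53, adjusted p = 0.00215). KLF5 differed by -0.54 (adjusted p = 0.00455, and 0.0505 without untreated round 2) and TFAP2C by -0.96, a call lost without 48 h round 2 (0.23), untreated round 1 (0.129) or untreated round 2 (0.0778). KLF4 had 6.97 and 7.26 at 48 h and 5.58 and 6.21 in untreated cells (1.22, adjusted p = 0.0083), a call lost without 48 h round 2 (0.0823) or untreated round 1 (0.0635). Decreases numbered 5, 3, 3 and 2 and increases 1, 0, 0 and 1 without each library in turn. TP63, the basal master regulator, had 11.03 and 11.57 at 48 h and 10.84 and 11.48 in untreated cells (0.14 ± 0.70, adjusted p = 0.918). The splicing factors ESRP1 and ESRP2, which set epithelial isoforms, differed by -0.39 and -1.14 (adjusted p = 0.5 and 0.0622).

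Of 19 genes of adherens and tight junctions, 6 fell and 2 rose, with a median of -0.66. TJP3, a tight junction scaffold, had log2 levels of 2.04 and 2.37 at 48 h and 4.64 and 5.38 in untreated cells (-2.80, adjusted p = 0.00029), and the polarity gene PARD6B fell by 1.42 (adjusted p = 0.00152). TJP1, the related scaffold ZO-1, had 12.08 and 12.18 at 48 h and 11.48 and 11.42 in untreated cells and rose by 0.68 (adjusted p = 0.00222). The 5 other calls rested on single libraries. EPCAM had 6.90 and 7.15 at 48 h and 8.87 and 10.22 in untreated cells (-2.52, adjusted p = 0.0375), and without 48 h round 1, 48 h round 2 and untreated round 2 its adjusted p was 0.114, 0.143 and 0.247. Without the same libraries it was 0.0715, 0.072 and 0.151 for OCLN, occludin (-2.17), and 0.144, 0.0596 and 0.201 for CLDN7 (-1.72). CLDN1 (-1.64) lost its call in all 4 fits (0.0612 to 0.137). CTNNB1, β-catenin, differed by 0.66 and lost it without 48 h round 2 (0.127), untreated round 1 (0.0543) or untreated round 2 (0.0695). Without each library in turn 2, 2, 5 and 2 fell and 2, 1, 1 and 1 rose.

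Desmosome genes other than PPL differed less. Of 12, 2 fell and 0 rose, with a median of -0.33 (3 and 1 with the block), and 2, 1, 2 and 1 fell without each library in turn, with 1 rising without 48 h round 1. PKP2, plakophilin 2, had log2 levels of 10.07 and 9.44 at 48 h and 10.95 and 11.16 in untreated cells (-1.30, adjusted p = 0.00651) and lost its call without 48 h round 2 (0.0782) or untreated round 2 (0.0643). DSP, desmoplakin, had 13.58 and 13.89 at 48 h and 13.92 and 14.20 in untreated cells (-0.32, adjusted p = 0.352).

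Of 13 keratins, 3 rose and 1 fell, with a median of 0.20 (4 and 3 with the block). KRT8, a simple epithelial keratin, had log2 levels of 12.73 and 12.85 at 48 h and 11.84 and 11.74 in untreated cells (1.00 ± 0.09, adjusted p = 0.000111), while its partner KRT18 had 12.24 and 12.45 at 48 h and 12.52 and 12.90 in untreated cells (-0.37 ± 0.38, adjusted p = 0.56). KRT6A (1.08) and KRT6C (1.00) are close paralogs, and reads could be split between them in counting. KRT6A lost its call without 48 h round 1 (0.0527), 48 h round 2 (0.0582) or untreated round 2 (0.121) and KRT6C without 48 h round 1 (0.0571) or untreated round 2 (0.1), so that 1, 2, 3 and 1 keratins rose without each library in turn. KRT5 and KRT14, the basal pair, differed by -0.76 and 0.73 and were not called without the block. Over the 10 basal mammary markers, the linear levels summed to 226000 and 267000 at 48 h, against 146000 and 134000 in untreated cells, and 1 rose (LAMB3) and 1 fell (EPCAM). LAMB3 was the highest of them at 48 h, with log2 levels of 16.74 and 16.99 against 15.08 and 14.48 in untreated cells, and weighs most in the sum. Of the 10 markers, 5 were higher and 4 lower in both rounds. Over the 10 luminal markers the sums were 14600 and 16500 at 48 h and 11600 and 13400 in untreated cells, and 2 rose (KRT8 and XBP1).

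Of 10 tested genes of keratinocyte differentiation, 4 fell and 2 rose, with the lowest median of these 28 lists (-1.30). Besides S100A8, S100A9 and TGM1, FLG, filaggrin, fell by 1.25 (adjusted p = 0.00541), at log2 levels of 2.04 and 2.28 at 48 h and 3.39 and 3.43 in untreated cells. IVL, involucrin, a substrate of TGM1 in the cornified envelope, went the other way, with 7.60 and 8.20 at 48 h and 5.32 and 4.48 in untreated cells (3.00, adjusted p = 0.0145). Its call was lost without 48 h round 2 (0.116) or untreated round 2 (0.12), and that of CDSN (0.88) without these (0.273 and 0.12) or untreated round 1 (0.122), so that 2, 0, 1 and 0 rose without each library in turn. SPRR1B had 3.23 and 3.02 at 48 h and 4.97 and 7.62 in untreated cells (-3.17, adjusted p = 0.131, and 0.0106 with the block).

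**Figure D3:**
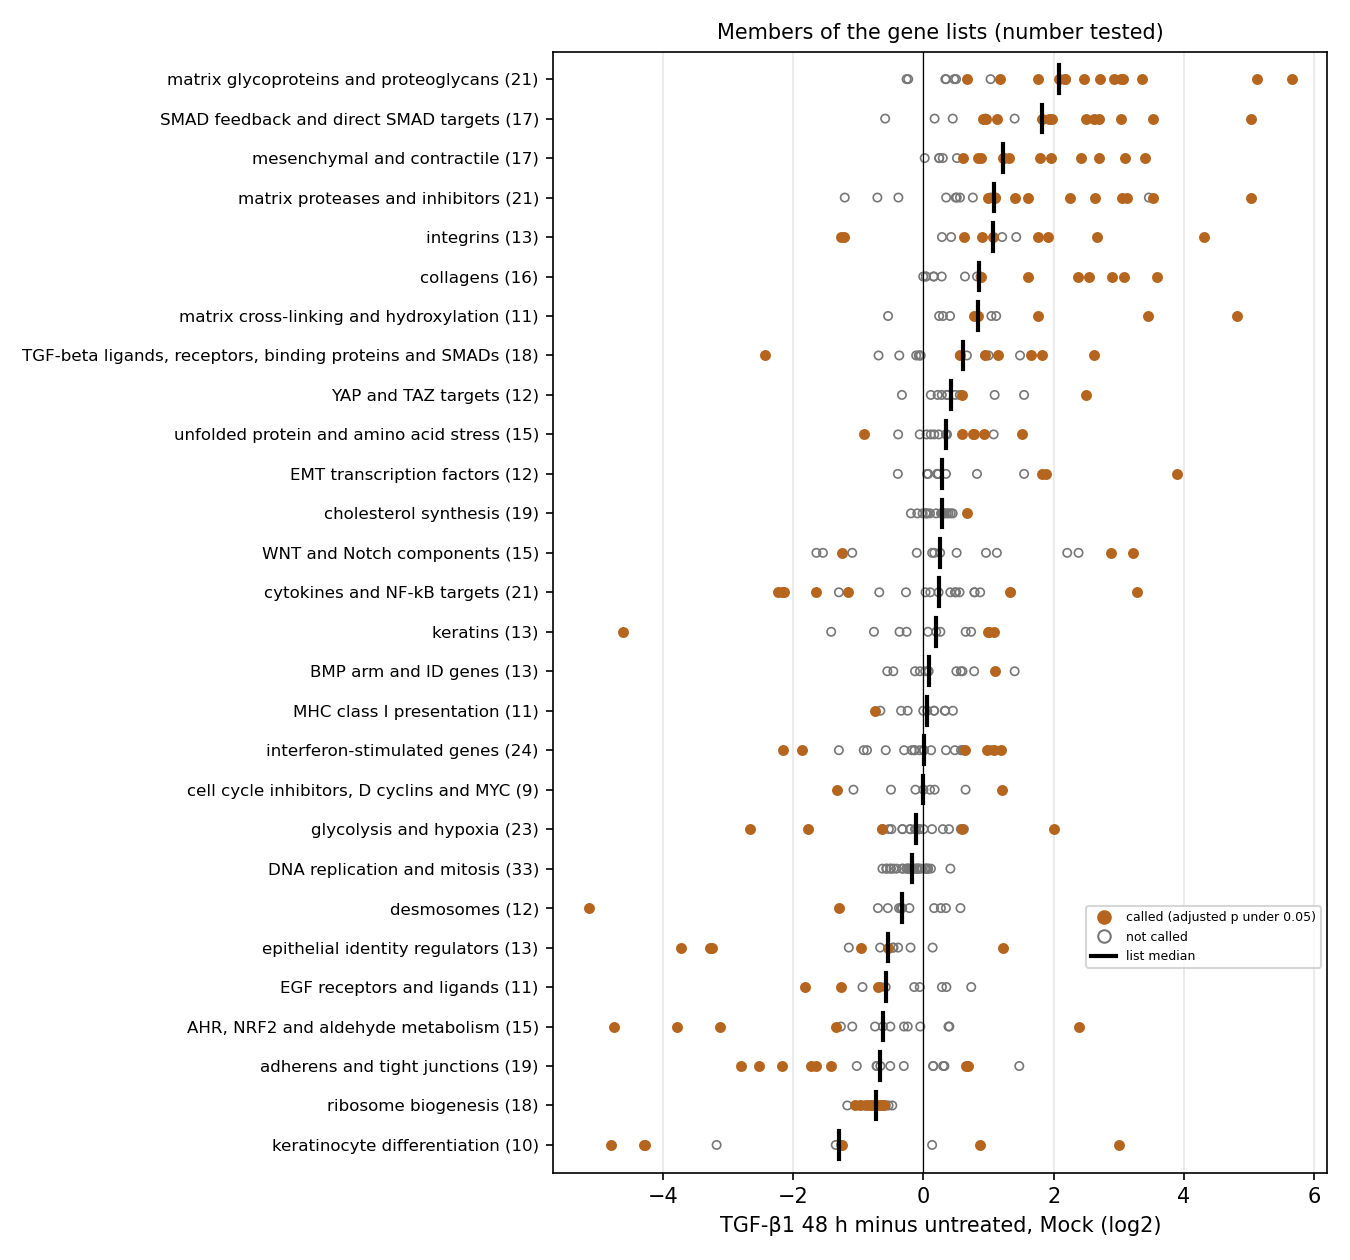
Difference between TGF-β1 48 h and untreated Mock cells (log2) for every tested member of 28 gene lists, 1 row per list in order of the list median (black bar), with genes called by limma filled. The matrix glycoproteins have the highest median (2.08) and the keratinocyte differentiation genes the lowest (-1.30), and the 33 genes of DNA replication and mitosis hold no called gene.

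MYC and ribosome biogenesis genes were lower, and genes of DNA replication and mitosis were not called. MYC had log2 levels of 12.23 and 11.46 at 48 h, against 13.26 and 13.08 in untreated cells (-1.32 ± 0.25, adjusted p = 0.00423). All 18 ribosome biogenesis genes, many of them known MYC targets, had negative differences, from -0.48 to -1.17, with a median of -0.73. Of these, 7 were called lower (17 with the block), and 12, 1, 5 and 1 without each library in turn. The median was -0.44 in round 1 and -1.03 in round 2. NPM1, nucleophosmin, had log2 levels of 15.29 and 14.97 at 48 h and 15.81 and 15.96 in untreated cells (-0.76 ± 0.12, adjusted p = 0.00222) and kept its call in every fit. The other called decreases included RRS1 (-1.05), NCL, nucleolin (-0.97), FBL, fibrillarin (-0.87), and NOLC1 (-0.80). Without 48 h round 2 and untreated round 2 the adjusted p was 0.0997 and 0.0809 for RRS1, 0.0864 and 0.0869 for NCL, 0.116 and 0.105 for FBL, and 0.327 and 0.16 for NOLC1, which also lost its call without untreated round 1 (0.116). The remaining called members lost their calls there too, WDR12 with 0.0915 and 0.0724, and DKC1, dyskerin, with 0.297 and 0.191 and also without untreated round 1 (0.0709).

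Of 9 cell cycle inhibitors, D cyclins and MYC, 1 rose and 1 fell, with a median of 0.0017 (2 and 1 with the block). Each count was 11.1% of the list. CDKN2D had log2 levels of 7.06 and 7.38 at 48 h and 6.20 and 5.84 in untreated cells (1.21, adjusted p = 0.00732), a call lost without 48 h round 2 (0.0784) or untreated round 2 (0.0788). Counts of increases were 1, 0, 2 and 0 without each library in turn. CDKN1A, p21, had 12.01 and 12.07 at 48 h and 11.84 and 10.94 in untreated cells (0.65, adjusted p = 0.0819, and 0.0223 with the block). CDKN2B, a known TGF-β target, and CDKN2A were listed at 0 in all 16 libraries. Their locus is known to be deleted in MCF10A. Of 33 genes of DNA replication and mitosis, 0 were called by limma in either direction (3 lower with the block, and 0 in each fit without 1 library), with a median of -0.17. At an unadjusted p under 0.05 there was 1 gene, on the higher side. MCM6 and MCM3, subunits of the replicative helicase, differed most, by -0.63 (adjusted p = 0.208, and 0.0377 with the block) and -0.57 (adjusted p = 0.269, and 0.0476 with the block). MKI67 differed by -0.19 and CCNB1 by -0.20.

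EGF is in the medium, and MCF10A cells depend on it. Of 11 EGF receptors and ligands 3 fell and 0 rose (4 and 2 with the block), with a median of -0.58. EREG, epiregulin, had log2 levels of 8.70 and 8.35 at 48 h and 10.50 and 10.17 in untreated cells (-1.81 ± 0.21, adjusted p = 0.000394), and EPGN, epigen, had 7.96 and 7.71 at 48 h and 8.96 and 9.25 in untreated cells (-1.27 ± 0.23, adjusted p = 0.00388). BTC, betacellulin, differed by -0.70 (adjusted p = 0.0492) and lost its call in all 4 fits (0.0518 to 0.301). The receptor gene EGFR had 12.64 and 12.88 at 48 h and 12.74 and 12.89 in untreated cells (-0.05, adjusted p = 0.913).

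Cytokine and acute-phase genes divided. Of 21 cytokines and NF-kB targets 2 rose and 5 fell (4 and 7 with the block), or 9.52% and 23.8% of the list, with a median of 0.23. IL11, a cytokine of the IL6 family, had log2 levels of 7.78 and 8.89 at 48 h and 5.34 and 4.78 in untreated cells (3.28 ± 0.42, adjusted p = 0.000636). The chemokine CXCL3 had 7.40 and 7.52 at 48 h and 6.24 and 6.03 in untreated cells (1.32 ± 0.17, adjusted p = 0.00069). BIRC3, an inhibitor of apoptosis, had 9.97 and 10.34 at 48 h and 12.18 and 12.48 in untreated cells (-2.17 ± 0.22, adjusted p = 0.000161). The acute-phase gene SAA2 fell by 2.24 (adjusted p = 0.00165) and complement C3 by 1.15 (adjusted p = 0.00261). SAA1 (-1.64) is a near copy of SAA2 with which it can share reads, and its call was lost without 48 h round 1 (0.119), 48 h round 2 (0.104) or untreated round 2 (0.219). LCN2, an iron-scavenging lipocalin, differed by -2.13 (adjusted p = 0.00421, and 0.0559 without untreated round 2). Without each library in turn, 4, 2, 3 and 2 rose and 4, 4, 6 and 3 fell. IL6 had 4.91 and 6.05 at 48 h and 4.15 and 4.12 in untreated cells (1.34, adjusted p = 0.112).

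Of 24 interferon-stimulated genes 4 rose and 2 fell (8 and 6 with the block), or 16.7% and 8.33% of the list, with a median of 0.0066. Increases numbered 3, 1, 1 and 1 and decreases 0, 0, 1 and 0 without each library in turn. IRF9, a subunit of the interferon-activated factor ISGF3, had log2 levels of 7.89 and 8.65 at 48 h and 6.94 and 7.21 in untreated cells (1.20). OAS1, a sensor of double-stranded RNA, had 5.22 and 5.42 at 48 h and 7.29 and 7.66 in untreated cells (-2.15). Calls lost in all 4 fits were those of IFI27 (1.08, adjusted p 0.106 to 0.168) and OAS1 (0.0533 to 0.128). IRF9 lost its call without 48 h round 2 (0.196), untreated round 1 (0.104) or untreated round 2 (0.0731), IFI44 (0.98) without 48 h round 2 (0.0595) or untreated round 2 (0.0708), IFI35 (0.63) without 48 h round 1 (0.0729), untreated round 1 (0.0543) or untreated round 2 (0.0745), and IFITM1 (-1.87) without 48 h round 1 (0.211), 48 h round 2 (0.0871) or untreated round 2 (0.338). Of 11 genes of MHC class I presentation, 1 fell, or 9.09%, and 0 rose (1 and 2 with the block), with a median of 0.06. This was the immunoproteasome subunit PSMB8 (-0.74, adjusted p = 0.00924), whose call was lost without 48 h round 2 (0.0792) or untreated round 2 (0.0651). A single gene rose without untreated round 1. B2M had 13.50 and 13.38 at 48 h and 13.48 and 13.40 in untreated cells.

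Among metabolic genes, the larger decreases were in xenobiotic and aldehyde metabolism. Of 15 targets of the aryl hydrocarbon receptor and of NRF2 and aldehyde dehydrogenases, 4 fell and 1 rose (8 and 2 with the block), the same numbers without each library, with a median of -0.62. Besides ALDH3A1 and CYP1B1, the aldo-keto reductase AKR1B10 had log2 levels of 3.98 and 4.19 at 48 h and 6.58 and 7.84 in untreated cells (-3.13, adjusted p = 0.000565). GCLC, the catalytic subunit of glutathione synthesis, fell by 1.35 (adjusted p = 0.00018). HMOX1, heme oxygenase 1, is an NRF2 target too but had 7.50 and 7.62 at 48 h and 5.19 and 5.15 in untreated cells (2.39 ± 0.40, adjusted p = 0.00262). NQO1, a further target of both factors, differed by -0.05 (adjusted p = 0.876).

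Of 23 genes of glycolysis and hypoxia, 2 rose and 3 fell (3 and 7 with the block), with a median of -0.11. These were 8.7% and 13% of the list, against 9.72% and 7.58% of all genes. VEGFA, the angiogenic factor, had log2 levels of 11.69 and 12.53 at 48 h and 9.94 and 10.25 in untreated cells (2.01, adjusted p = 0.0041, and 0.0537 without 48 h round 2), and PFKP, a phosphofructokinase, rose by 0.59 (adjusted p = 0.00356). HK2, hexokinase 2, had 8.89 and 7.57 at 48 h and 10.00 and 10.00 in untreated cells (-1.77), a call lost without 48 h round 2 (0.237), untreated round 1 (0.0901) or untreated round 2 (0.123). CA9, a hypoxia-induced carbonic anhydrase, differed by -2.66 and lost its call in all 4 fits (0.0524 to 0.198), and GPI (-0.63) without 48 h round 2 (0.0559). Without each library in turn 2, 1, 2 and 2 rose and 2, 0, 1 and 1 fell. Of 19 cholesterol synthesis genes 1 rose, IDI1 (0.67, adjusted p = 0.0128), and 0 fell (3 and 0 with the block), or 5.26% higher, with a median of 0.28. Its call was lost without 48 h round 2 (0.12) or untreated round 2 (0.119), which left 0.

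Of 15 genes of the unfolded protein response and amino acid stress 5 rose and 1 fell, with a median of 0.35. The COPII coat gene SEC24D, which serves collagen export, had log2 levels of 11.21 and 11.24 at 48 h and 9.77 and 9.66 in untreated cells (1.51 ± 0.15, adjusted p = 0.000155). XBP1, a transcription factor of the secretory pathway, rose by 0.76 (adjusted p = 0.000794). DNAJB9 (0.93) lost its call without untreated round 2 (0.0647), HERPUD1 (0.78) without 48 h round 2 (0.0557), untreated round 1 (0.0597) or untreated round 2 (0.051), and the chaperone HSPA5 (0.60) in all 4 fits (0.0664 to 0.171). PSAT1 of serine synthesis differed by -0.91, a call lost without 48 h round 1 (0.113) or untreated round 2 (0.173). Without each library in turn 4, 3, 3 and 2 rose and 0, 1, 1 and 0 fell. DDIT3 and ATF3, which mark severe stress, differed by 0.17 and 0.05 and were not called.

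Of 15 WNT and Notch genes 2 rose and 1 fell (5 and 2 with the block), with a median of 0.26. These were 13.3% and 6.67% of the list, close to the shares over all genes. WNT5A, a ligand of the noncanonical pathway, had log2 levels of 11.72 and 12.18 at 48 h and 8.90 and 8.56 in untreated cells (3.22 ± 0.41, adjusted p = 0.000585), and WNT5B had 7.95 and 8.03 at 48 h and 5.46 and 4.75 in untreated cells (2.88 ± 0.26, adjusted p = 9.72e-05). The receptor NOTCH1 had 9.99 and 9.66 at 48 h and 11.21 and 10.95 in untreated cells (-1.25 ± 0.17, adjusted p = 0.000851), and its ligand JAG1 had 12.50 and 13.02 at 48 h and 11.39 and 11.87 in untreated cells (1.13, adjusted p = 0.135, and 0.00159 with the block). Of 12 YAP and TAZ targets 2 rose and 0 fell (8 and 0 with the block), with a median of 0.43, and 1, 0, 3 and 0 rose without each library in turn. CTGF, also a SMAD target and now called CCN2, had 9.86 and 10.04 at 48 h and 7.97 and 6.95 in untreated cells (2.49, adjusted p = 0.007), a call lost without 48 h round 2 (0.0597) or untreated round 2 (0.0823). TEAD1 (0.60) lost its call in all 4 fits (0.0728 to 0.158). CYR61, now called CCN1, had 9.72 and 8.94 at 48 h and 8.17 and 7.40 in untreated cells (1.55, adjusted p = 0.0578, and 4.61e-05 with the block).

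How the 48 h state relates to 24 and 72 h was asked within the Mock stock. All 3 times share the untreated libraries, so their differences from untreated are given side by side and not correlated. Against untreated, 2348 genes were called at 24 h (17.3%, or 9.92% higher and 7.39% lower), 2346 at 48 h and 1948 at 72 h (14.4%, or 8.29% higher and 6.07% lower). With the block 35.9% were called at 24 h, 34.9% at 48 h and 31.5% at 72 h. Between 48 h and 24 h, 0 genes were called by limma with or without the block, and the smallest adjusted p was 1. At an unadjusted p under 0.05 there were 144 genes (476 with the block), and 27 differed by at least 2-fold. Between 72 h and 48 h, 0 genes were called in either fit, 49 had an unadjusted p under 0.05 (137 with the block), and 8 differed by at least 2-fold.

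Genes differed in how much of the 48 h difference was present at 24 h. SNAI2 differed from untreated by 1.89, 1.88 and 1.93 at 24, 48 and 72 h, SMAD7 by 1.95, 1.98 and 2.02, and MYC by -1.29, -1.32 and -1.24, so that these were flat from 24 h. POSTN differed by 4.02, 5.66 and 6.29, S100A8 by -3.29, -4.79 and -5.05, S100A9 by -2.44, -4.27 and -4.61, and PPL by -3.66, -5.14 and -5.10, which were larger at 48 h than at 24 h. CDH1 had log2 levels of 11.45 and 11.57 untreated, 11.36 and 11.40 at 24 h, 10.57 and 11.01 at 48 h, and 10.08 and 10.83 at 72 h. Its levels were lower at each later time in both rounds, and none of its differences from untreated was called (adjusted p = 0.942, 0.628 and 0.474). These 8 genes were picked after their values were seen, apart from the ones set as readouts.

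The 3 genes with the smallest p between 48 h and 24 h were C10orf116, CTNNA3 and GPR37. C10orf116, an adipocyte-related gene now called ADIRF, had log2 levels of 8.36 and 8.00 at 48 h, against 9.51 and 9.52 at 24 h (-1.34 ± 0.28, adjusted p = 1), with 10.38 and 11.04 in untreated cells and 7.48 and 7.28 at 72 h. CTNNA3, an α-catenin, had 3.29 and 3.21 at 48 h, against 2.41 and 1.86 at 24 h (1.11 ± 0.24, adjusted p = 1). GPR37, an orphan receptor, had 5.24 and 5.07 at 48 h, against 5.98 and 6.05 at 24 h (-0.86 ± 0.20, adjusted p = 1). In these genes the 48 h libraries lay apart from the 24 h ones in both rounds, but the genes were picked by their small p. Between 72 h and 48 h the genes with the smallest p were CXCL3, RAB3A and CATSPER2P1. CXCL3 had 8.39 and 8.41 at 72 h, against 7.40 and 7.52 at 48 h (0.94 ± 0.17, adjusted p = 1). RAB3A, a vesicle GTPase, differed by -0.86 ± 0.22 and the pseudogene CATSPER2P1 by -0.71 ± 0.20 (adjusted p = 1 for both).

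**Figure D4:**
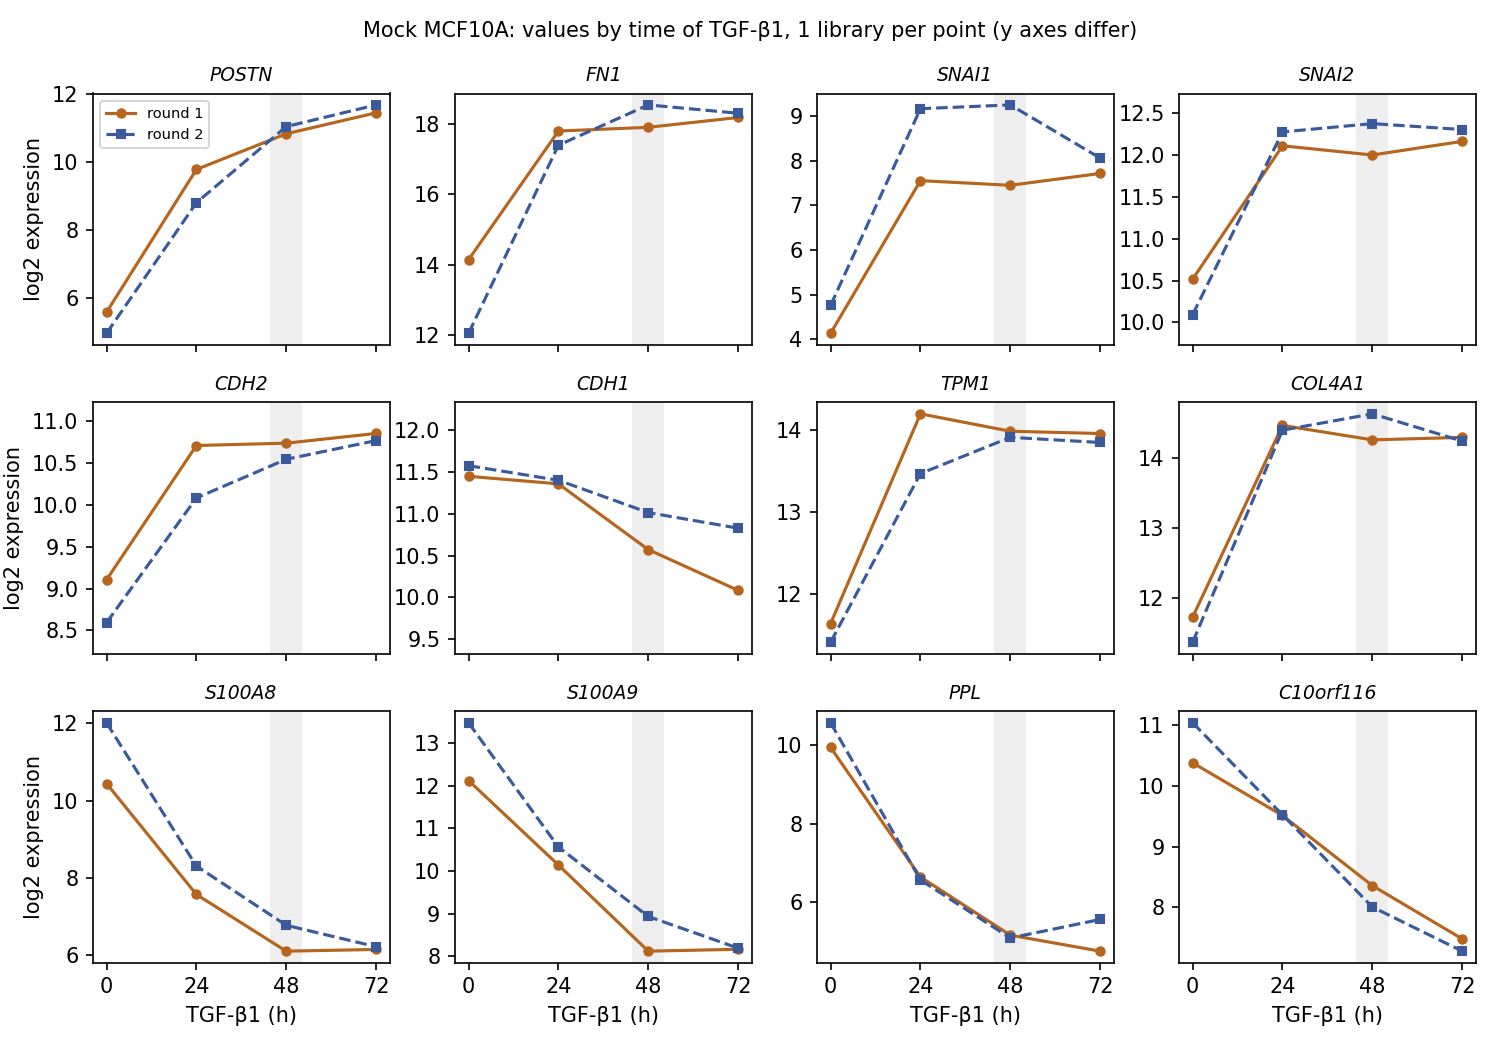
Log2 levels of 12 genes in Mock cells at 0, 24, 48 and 72 h of TGF-β1 (x axis, h), 1 library per point, with round 1 as a solid and round 2 as a dashed line and 48 h shaded. SNAI2 and COL4A1 are flat from 24 h, whereas S100A8, S100A9 and C10orf116 are lower at 48 h than at 24 h in both rounds. The y axes differ between panels and span at least 3 units.

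The same contrast in the PHF8 stock formed its differences from other libraries than the Mock contrast. Its calls are not independent of Mock, since the fit estimates each gene's spread from all 16 libraries together. There 1710 genes were called at 48 h (12.6%), 939 higher (6.92%) and 771 lower (5.68%), and 3823 with the block (28.2%). The stocks shared 1437 calls in the same direction, which were 61.3% of the Mock calls and 84% of the PHF8 calls, and 0 genes were called in opposite directions. With the block the shared calls were 67% and 83.1%. Of the Mock calls 2339 (99.7%) had the same sign in the PHF8 stock, against 82.9% of all genes, and across genes the differences correlated at 0.912, a description over genes that are not independent. Without 1 library of the PHF8 stock the count there was 885 (48 h round 1), 653 (48 h round 2), 1230 (untreated round 1) or 567 (untreated round 2).

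POSTN differed by 5.66 in Mock and 5.41 in the PHF8 stock, FN1 by 5.12 and 5.01, and CAMK2B by -5.54 and -4.36. PHF8 itself had log2 levels of 9.34 and 9.48 at 48 h and 9.65 and 9.61 in untreated Mock cells (-0.22 ± 0.33, adjusted p = 0.699). KRT15 differed by -4.61 in Mock and -2.80 in the PHF8 stock. For the difference between the stocks' responses, 0 genes were called by limma with or without the block. At an unadjusted p under 0.05 there were 124 (346 with the block), and 90 differed by at least 2-fold. The smallest p belonged to CA2, NFE2 and BRSK1. CA2, a carbonic anhydrase, had log2 levels of 6.43 and 6.43 at 48 h and 8.84 and 9.07 in untreated Mock cells (-2.52), and 7.60 and 7.74 at 48 h and 8.01 and 8.77 in untreated PHF8 cells (-0.72), a difference between stocks of 1.81 ± 0.34 (adjusted p = 1, and 0.297 with the block). The kinase gene BRSK1 differed by 2.25 in Mock and 0.59 in the PHF8 stock, and the transcription factor gene NFE2 by -1.01 and -2.42 (adjusted p of the difference 1 for both). The call of NFE2 in Mock was lost without 48 h round 2 (0.0771) or untreated round 2 (0.111).

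**Figure D5:**
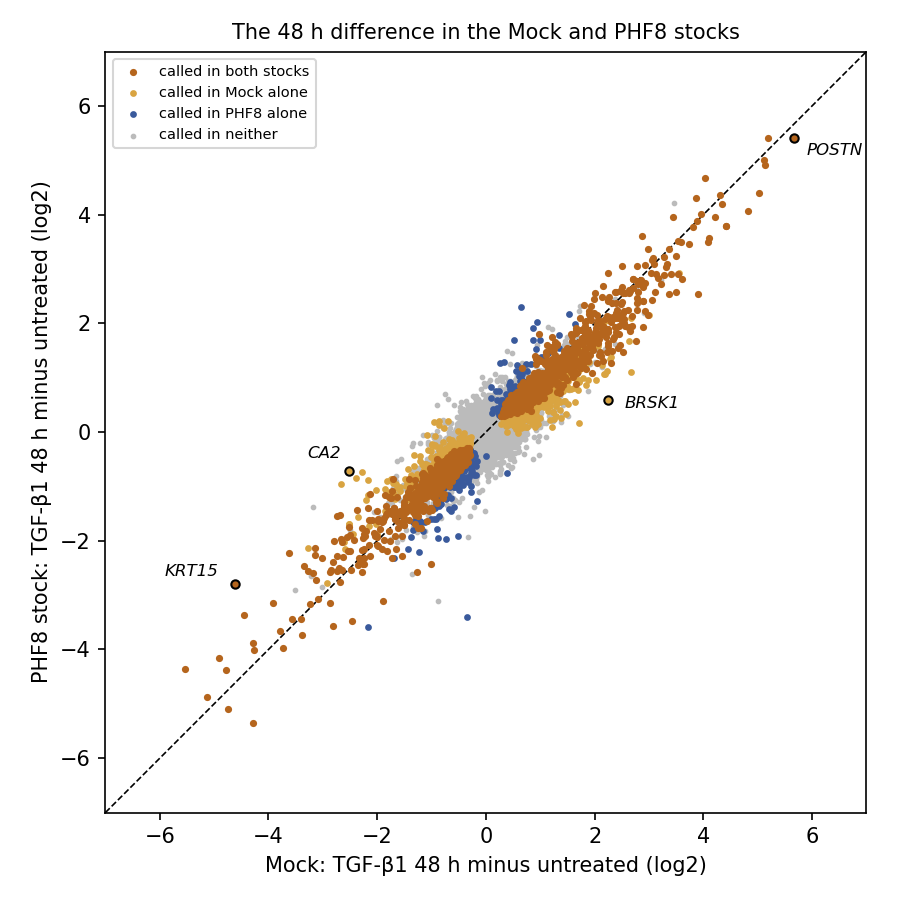
Difference between TGF-β1 48 h and untreated cells (log2) in Mock (x axis) and in the PHF8 stock (y axis), 1 point per gene tested, with the line of equality dashed. The 1437 genes called in both stocks have the same sign on both axes, and CA2, KRT15 and BRSK1 lie closer to 0 in the PHF8 stock.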

How the data were processed

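RNA was sequenced from 16 libraries of MCF10A cells, 4 of which form the 48 h contrast in Mock cells. Per the labels' protocols, stranded libraries of ribosome-depleted RNA were read as 50-base pairs, and per the submitters' processing notes TopHat2 2.0.13, hg19, featureCounts from Subread 1.4.6 and DESeq2 were used. The authors deposited a log2 value for each gene in each library. The transformation is not given in the sources used here. Very weakly expressed genes have nearly constant, often negative, levels, so their differences may be compressed. Another sheet's 4 columns of values matched no sample and were not used.

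Of 23368 rows, 28 with symbols turned into dates were left out. The 13564 genes with about 10 normalised counts in 2 libraries were fitted with limma 3.58.1 (R 4.3.3), with 1 mean per group over 16 libraries, a mean-variance trend and no pseudocount, leaving 8 residual degrees of freedom. P-values were adjusted by Benjamini-Hochberg over all genes, two-sided. The code was tested on simulated data. Labels tie the replicate number to a sequencing round, and deviations of same-round libraries from their group means correlated between groups (0.206 to 0.749 over 28 pairs of groups), so the round was also fitted as a block. Alternatives covered the block, filters, normalization, trend, library sets and leaving out each library.

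The contrast and the 32 gene lists (523 symbols, 457 tested) were chosen with earlier results of these data known. Named were the 15 largest called differences in each direction, 15 readouts, up to 4 called members per list and direction (or the 2 largest differences), and, where a further comparison had no call, its 3 smallest p. Some items are not reported here. Other list members were named after their values were seen. Promoters are from RefSeq (GRCh38.p14), matched by symbol or older symbol, and 81.4% of increases and 80.8% of decreases had one.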

Additional observations from a re-analysis of the deposited data

Results flagged for a closer look

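PHF8 and RAB3A had opposite signs in the stocks at 48 h, with both rounds of a stock on the same side. PHF8 differed from untreated by -0.22 in Mock and by 0.26 in the stock that overexpresses it, a difference between stocks of 0.48 with limma adjusted p = 1. RAB3A, a vesicle GTPase, differed by 0.39 in Mock and by -0.76 in the PHF8 stock, a difference of -1.15 with limma adjusted p = 1. RAB3A had log2 levels of 4.39 and 4.70 at 48 h and 4.33 and 3.99 in untreated Mock cells, so the Mock groups lay close together. Groups of 2 libraries are too small to look for a library that stands apart within a group.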

How the results depend on the processing

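The count of called genes at 48 h in Mock (2346) moved by over 1.5 times with the replicate block (4740), in the Mock libraries alone with the replicate block (5286), and without the round 2 library at 48 h (794) or untreated (791). It stayed within 1.5 times without the round 1 library at 48 h (2225) or untreated (1634). That in the PHF8 stock (1710) moved to 3823 with the replicate block and was between 567 and 1230 without single libraries. For 48 h against 24 h, the Mock libraries alone with the replicate block gave 1 call in place of 0. Other settings left the Mock count between 2073 (Mock libraries alone, no block) and 2414 (quantile normalization). Quantile normalization put 51.9% of calls on the higher side, against 56.2%. No called gene of the lists changed sign without 1 library, but 98 of the list genes that were not called did. The check of named results covered the genes named by rule (largest differences, readouts and leading list members). Among these, other than interferon-stimulated genes, a sign change was seen in ID1 alone, which was not called. Further list genes given above were outside it, and some that were not called changed sign. TP63 (0.14) was -0.13 without 48 h round 2 and -0.177 without untreated round 1. CDH3 (0.31) was -0.03 without 48 h round 2. ID1 (0.08) was -0.007 with quantile normalization and between -0.248 and 0.411 without single libraries. Interferon-stimulated genes were named for the Mock contrast, but this check took their difference between stocks, which was not called. The difference between stocks was between -0.251 and 0.211 for IFI27 (-0.02, and 0 with equal medians), between -0.201 and 1.06 for OAS1 (0.43) and between -0.88 and 0.64 for IFITM1 (-0.12). In Mock, the 48 h differences of IFI27, OAS1 and IFITM1 kept their sign without any 1 of the 4 libraries. Of 457 list genes tested, 93 were called with the block alone, and 0 lost their call with it. Fits without 1 library leave a lone sample that is assumed to vary like the other groups. With 2 libraries per group, unknown depth and compressed low values, small differences and those of weakly expressed genes are limited most.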
